A study of Saccharomyces cerevisiae with 12 samples.

Results

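The genes described here encode the enzymes, transporters and regulators of fatty acid oxidation in Saccharomyces cerevisiae, together with the PEX genes of peroxisome biogenesis. They were chosen by name: 20 genes of fatty acid activation, import, β-oxidation, the carnitine shuttle and its regulators, and every gene named PEX with a number, of which there were 28. All 48 stood in each of the 4 deposited tables, out of 6078 genes that those tables list in all. RNA was sequenced from budding yeast of the haploid strain BY4741 (MATa his3Δ1 leu2Δ0 met15Δ0 ura3Δ0), either wild type or with SET4, a gene for a SET-domain chromatin protein, replaced by the marker HIS3MX (set4Δ). Cells of both genotypes grew in rich YPD medium at 30 °C to mid-log phase, in air or for 18 h in sealed anaerobe pouches, here called hypoxia, which gave 4 groups of 3 libraries. The auxotrophic deletions were shared by all groups, but the marker HIS3MX was in set4Δ cells alone. Loss of SET4 and presence of this marker therefore cannot be told apart, nor can oxygen and the pouch as a vessel.

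In yeast, β-oxidation takes place in peroxisomes and not in mitochondria. Long-chain fatty acids are activated to acyl-CoA and imported through an ABC transporter. Acyl-CoA is shortened by an acyl-CoA oxidase that uses molecular oxygen, a bifunctional enzyme and a thiolase. The acetyl units leave as acetylcarnitine or through the glyoxylate pathway. The PEX proteins build the organelle: receptors carry enzymes to a docking complex, RING ligases and AAA ATPases recycle the receptors, and membrane proteins set the size and number of peroxisomes. On oleate, the paired transcription factors Oaf1 and Pip2 bind oleate response elements before many of these genes, and Adr1 adds activation once glucose is used up.

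Values are normalized read counts, that is, reads per gene divided by a size factor for each library. Libraries held 18786176 to 27572406 reads on genes. The mating type a genes STE2 and STE6 were high in every library and the α gene STE3 stayed at 18.6 to 53.0 normalized counts. Other markers were less clear. The α genes SAG1 and MF(ALPHA)2 had 349.8 to 958 and 71.9 to 162 normalized counts, and the a gene AGA2 had 115 to 677. SET4 itself had 160.9 to 8574 normalized counts in wild-type libraries and 0 to 26.0 in set4Δ libraries. Library 3 of the hypoxic cells stood apart in both genotypes. Over all genes its log2 values correlated with those of the other hypoxic libraries of its genotype at r = 0.983 to 0.990 in wild type and 0.980 to 0.983 in set4Δ, against 0.993 and 0.997 between libraries 1 and 2, a correlation across genes, which are not independent replicates. For the 48 genes, the median absolute distance of library 3 from the mean of the other libraries of its group was, on the log2 scale, 0.172 in wild type and 0.236 in set4Δ, against 0.0976 to 0.137 for the other hypoxic libraries. Results in hypoxia are therefore also given without these libraries, a choice made after seeing the data. As the libraries were picked for their distance, leaving them out narrows the spread within groups in advance. Adjusted p-values of those fits are descriptions and add no support for a difference between groups. Nothing in the labels says more of the replicates than a number, so that p-values measure the spread between these libraries, which may be technical. In bulk RNA, fewer cells with a transcript and less of it per cell cannot be told apart.

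Oleate response elements were looked for before these genes. The pattern CGGNNNTNA, followed by 9 to 12 further bases and CCG, was searched on both strands of the 500 bases before each start codon in the RefSeq R64 genome. It was present before 12 of the 20 oxidation genes (60%), 4 of the 28 PEX genes (14.3%) and 110 of all 5787 promoters of the same length (1.90%). The consensus was itself drawn from promoters of this kind, so these shares are a description and not evidence of binding. Elements are printed 5′ to 3′ on the strand that matches, with the fixed bases CGG, T, A and CCG in capitals. They are those of the 6 genes with an element called lower in hypoxic set4Δ cells when both libraries 3 were left out. DCI1 and PIP2, not called there, are added as a contrast. These genes were picked after their values were seen.
POX1 distal: CGGagtTtAatcaactaataCCG
POX1 proximal: CGGtcaTtAgcggctaatagCCG
FOX2 distal: CGGactTaAaactaggcttCCG
FOX2 proximal: CGGcgtTaAcaaatttccCCG
POT1: CGGggaTaAtagtattaacaCCG
FAA2: CGGcgtTaAagactgacggtCCG
ECI1: CGGgcaTaAgaaatattattCCG
PEX5: CGGagtTaAtcgcgatgatCCG
DCI1: CGGctgTaAgcgcgctaaactCCG
PIP2: CGGaacTaAatataatctCCG

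The POX1 elements lie at chrVII:107846-107868 and chrVII:107883-107905, and the second reads as an element on both strands, as do those of DCI1, POT1 and PIP2. The FOX2 elements lie at chrXI:457337-457358 and chrXI:457305-457325. The POT1 element lies at chrIX:41610-41632, 166 to 188 bases before its start codon. The FAA2 element lies at chrV:184355-184377, the ECI1 element at chrXII:707191-707213 and the PEX5 element at chrIV:950388-950409. The DCI1 element lies at chrXV:675286-675309 and that of PIP2 at chrXV:1023348-1023368. All of them lie within the 500 bases upstream of the start codon. The other matches stood before CRC1, PXA2, SPS19, TES1 and YAT1 and before PEX6, PEX11 and PEX13. The core of the Adr1 site, TTGGAG or TTGGGG on either strand, was more widespread, with 75% of the oxidation genes, 32.1% of the PEX genes and 26.2% of all promoters.

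The first comparison asks how the wild-type levels changed from air to hypoxia. Most oxidation genes rose, with the highest median in the carnitine shuttle. The PEX genes were called higher about as often as all genes, and none was called lower. Of their 5 calls, 4 were among receptors and co-receptors. All 48 genes passed the filter on low values in each comparison. Of the 20 oxidation genes, 15 were called higher and 1 lower, with adjusted p ≤ 0.05 and an absolute log2 fold change ≥ 1 (limma with Benjamini-Hochberg adjustment over 6033 genes). Over all genes tested, 18.1% were called higher and 14.4% lower. Of the 28 PEX genes, 5 were called higher and 0 lower. The median log2 fold change was 1.53 for the oxidation genes, 0.46 for the PEX genes and 0.01 for all genes. Without the minimum fold, 17 oxidation genes were higher and 2 lower, and 18 PEX genes were higher and 3 lower, where 40% of all genes were higher and 39.5% lower. Without hypoxic library 3, 15 oxidation genes and 6 PEX genes were called higher and 1 oxidation gene lower, where 18.2% and 15% of all genes were. Under quantile normalization DCI1, SPS19 and PEX9 lost their calls and FAA4 was called higher.

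**Figure D1:**
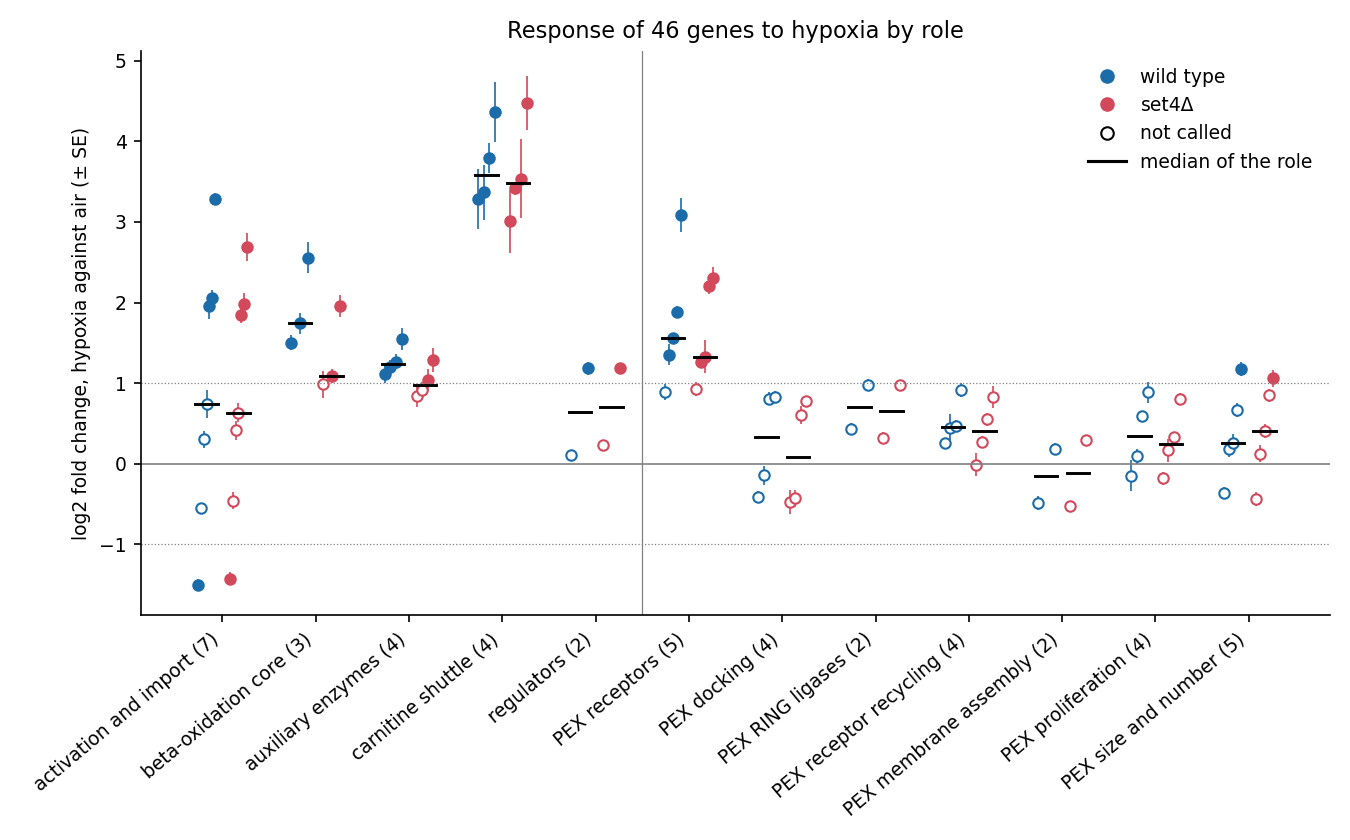
Log2 fold change of hypoxia against air for 46 of the genes by role, with the number drawn for each role in parentheses, wild type in blue and set4Δ in red, bars ± SE, filled points for called genes and black lines for the median of the genes drawn. The carnitine shuttle has the highest medians, 3.58 and 3.48, and FAT1 is the lowest point of its role in both genotypes.

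In the beta-oxidation core, all 3 genes were called higher in wild type. POX1, the acyl-CoA oxidase of the first step, had 227, 231 and 233 normalized counts in air and 919.8, 787 and 640.5 in hypoxia, in libraries 1, 2 and 3 (order kept below). Its log2 fold change was 1.74 (SE 0.13, adjusted p = 4.8e-06). The air libraries lay close together, and every hypoxic library lay far above them. FOX2, the bifunctional hydratase and dehydrogenase of the middle steps, had 425, 452 and 418 in air and 1371, 1108 and 1201 in hypoxia, a log2 fold change of 1.5 (SE 0.09, adjusted p = 1.7e-06). POT1, the thiolase that releases acetyl-CoA, had 204, 157 and 194 in air and 1461, 1043 and 846 in hypoxia, a log2 fold change of 2.56 (SE 0.20, adjusted p = 6e-06). POT1 had the highest fold change of the 3, 5.89-fold, and its hypoxic libraries were spread most widely.

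The 4 auxiliary enzymes, which handle unsaturated acyl-CoA or release free acids, were all called higher. ECI1, an enoyl-CoA isomerase, had 127, 152 and 137 in air and 427, 468 and 339 in hypoxia, log2 fold change 1.55 (SE 0.14, adjusted p = 1.5e-05). DCI1, a related isomerase, had 119.6, 101 and 109.9 and 258, 231 and 231, log2 fold change 1.12 (SE 0.11, adjusted p = 3e-05). SPS19, a dienoyl-CoA reductase, had 196, 187 and 205 and 478, 463 and 413, log2 fold change 1.20 (SE 0.09, adjusted p = 6.6e-06). In each of these genes the hypoxic libraries lay above every air library. TES1, the peroxisomal acyl-CoA thioesterase, had 622, 741 and 641 and 1687, 1442 and 1698, log2 fold change 1.27 (SE 0.10, adjusted p = 6.1e-06).

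**Figure D2:**
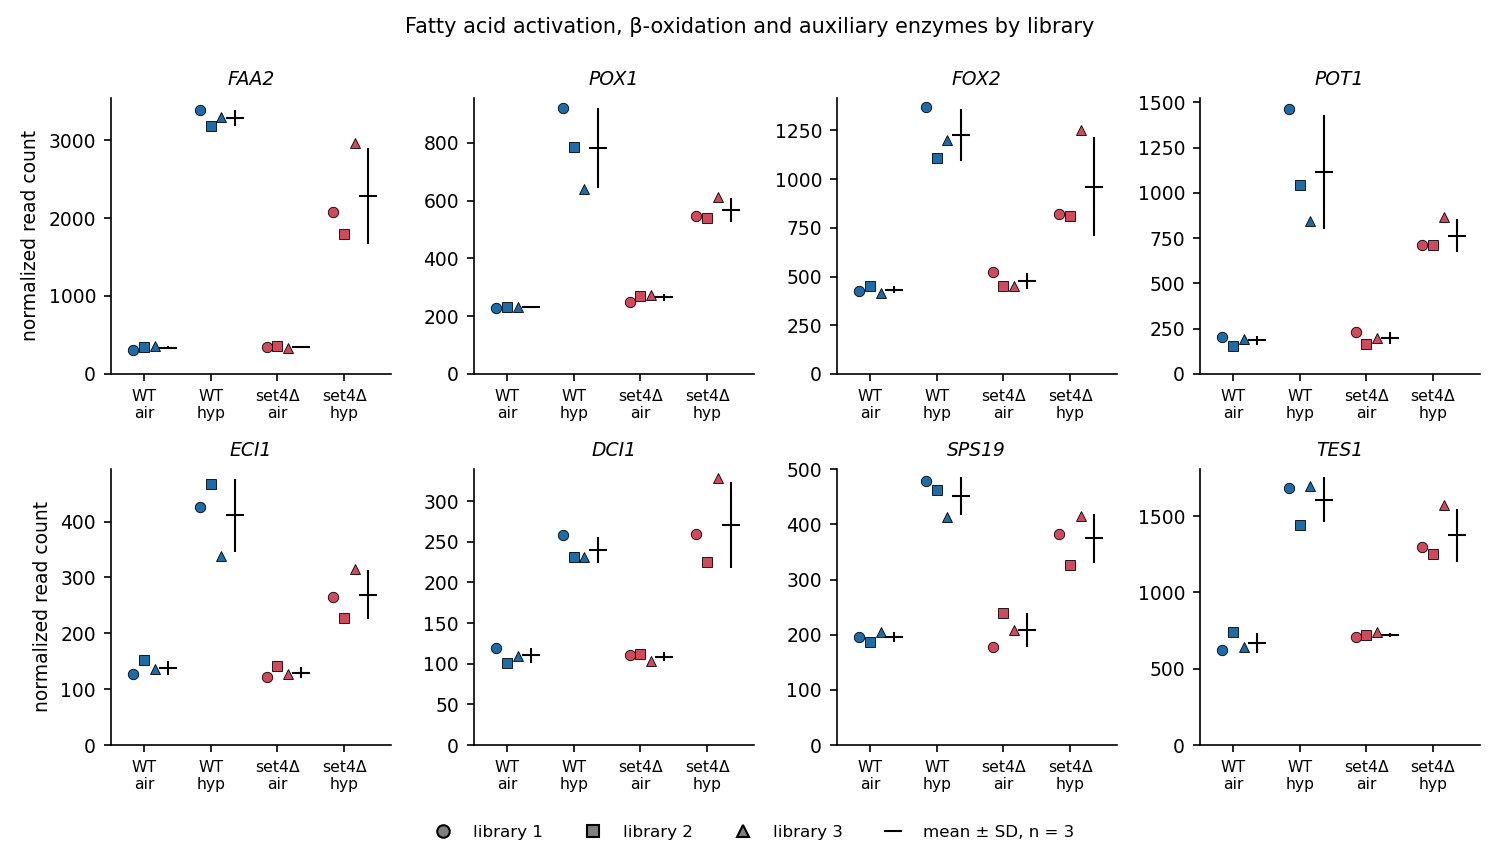
Normalized read counts of FAA2 and the β-oxidation genes in each library of the response tables, with the 3 libraries of a group marked by shape and the mean ± SD (n = 3) beside them; the axis starts at 0. In every panel the hypoxic libraries lie above those in air, and for FAA2, POX1 and ECI1 the hypoxic libraries of set4Δ lie below those of wild type.

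Activation and import went both ways. FAA2, the acyl-CoA synthetase of peroxisomes, had 311, 347 and 352 in air and 3389, 3184 and 3294 in hypoxia, log2 fold change 3.29 (SE 0.07, adjusted p = 2.9e-08), or 9.75-fold. The annotated gene BUD25 overlaps 160 bases of FAA2 on the opposite strand, and although the libraries were stranded, no source used here states the strand setting of the counting. The ABC transporter of acyl-CoA consists of Pxa1 and Pxa2. PXA2 had 235, 279 and 279.6 in air and 1120.3, 1124 and 1066 in hypoxia, log2 fold change 2.06 (SE 0.09, adjusted p = 3.5e-07), and PXA1 rose by 1.96 (SE 0.16, adjusted p = 7.4e-06). In contrast FAT1, which activates very long chain fatty acids and takes part in uptake, had 2739, 2515 and 2543 in air and 938, 902 and 917 in hypoxia. Its log2 fold change was -1.50 (SE 0.06, adjusted p = 2.9e-07), and it was the only one of the 48 genes called lower. ANT1, the ATP carrier of the peroxisomal membrane, had a log2 fold change of -0.55 (SE 0.07, adjusted p = 0.00013), short of the minimum fold. The acyl-CoA synthetases FAA1 and FAA4, which serve imported fatty acids in general, had log2 fold changes of 0.31 and 0.74 (adjusted p = 0.028 and 0.0039), also short of it.

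The carnitine shuttle, which passes acetyl units from peroxisomes and cytosol into mitochondria, held the largest rises. YAT1, a carnitine acetyltransferase of the outer mitochondrial membrane, had 253, 260.0 and 229 in air and 6729.9, 7901 and 2530.2 in hypoxia, log2 fold change 4.37 (SE 0.37, adjusted p = 1.2e-05), or 20.7-fold. CAT2, the carnitine acetyltransferase of peroxisomes and mitochondria, had 195, 213 and 191 and 3643, 2852 and 2056, log2 fold change 3.79 (SE 0.18, adjusted p = 5.6e-07). Hypoxic library 3 was the lowest of the 3 for both genes, though still far above air. CRC1, the acetylcarnitine carrier, rose from a mean of 14.3 ± 1.74 to 171 ± 86.2 (SD, n = 3), log2 fold change 3.37 (SE 0.34, adjusted p = 3.5e-05), and YAT2, a cytosolic carnitine acetyltransferase, from 809 ± 17.8 to 8889.6 ± 4945 (SD, n = 3), log2 fold change 3.28 (SE 0.37, adjusted p = 6.5e-05). Summed over the 4 genes, libraries 1, 2 and 3 held 1281, 1275 and 1256 normalized counts in air and 19168, 24971 and 8754 in hypoxia. Without hypoxic library 3 the log2 fold change was 4.88 (adjusted p = 7.6e-10) for YAT1 and 3.76 (adjusted p = 5.8e-08) for YAT2.

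**Figure D3:**
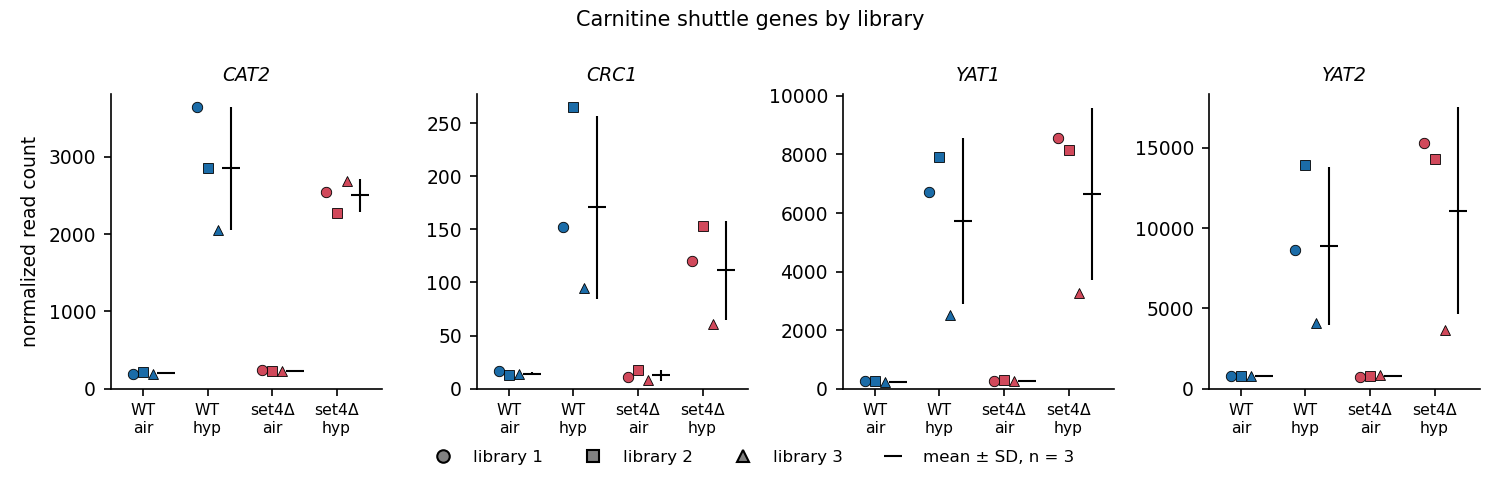
Normalized read counts of the 4 carnitine shuttle genes in each library of the response tables, with libraries marked by shape and the mean ± SD (n = 3) beside them; the axis starts at 0. Library 3 (triangles) is the lowest hypoxic library for CRC1, YAT1 and YAT2 in both genotypes and for CAT2 in wild type alone.

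The 2 regulators differed. PIP2 had 846, 872 and 889.5 in air and 2055, 2099 and 1784 in hypoxia, log2 fold change 1.18 (SE 0.08, adjusted p = 2.6e-06). OAF1 had 1792, 1784 and 1729 in air and 1883, 1906 and 1915 in hypoxia, log2 fold change 0.10 (SE 0.06, adjusted p = 0.11), and was not called although its groups did not overlap. Groups that do not overlap, with hypoxia above, were found for 17 of the 20 oxidation genes and 19 of the 28 PEX genes, against 41.3% of all genes. Hypoxia lay wholly below air for 2 oxidation genes and 3 PEX genes, against 41.4% of all genes. PIP2 has an oleate response element of its own and OAF1 does not.

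Levels can be set side by side between genes only per length of coding sequence. In air the highest level of the oxidation genes was that of FAA4, with 6209.6 normalized counts per kilobase of coding sequence, followed by FAA1 with 2302 and FAT1 with 1293. The lowest was that of CRC1 with 14.6. In hypoxia FAA4 stayed first with 10640.3 per kilobase, followed by YAT2 with 3207 and FAA1 with 2857, and the spread of the hypoxic YAT2 libraries takes in the FAA1 level. The median level of the oxidation genes was 162.1 per kilobase in air and 614 in hypoxia, and that of the PEX genes 500.3 and 608. The median of the oxidation genes thus lay below that of the PEX genes in air and next to it in hypoxia.

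Among the PEX genes the receptors that bring cargo to the organelle rose, and most other roles stayed under the minimum fold. Of 5 receptors and co-receptors, 4 were called higher. PEX18, a co-receptor of Pex7, had 46.7, 39.9 and 26.7 in air and 336, 352 and 279 in hypoxia, log2 fold change 3.09 (SE 0.21, adjusted p = 3.2e-06), or 8.51-fold. PEX21, its paralog and the other co-receptor, had 439, 411 and 445 and 1509, 1649 and 1651, log2 fold change 1.89 (SE 0.07, adjusted p = 2e-07). PEX21 was already well above PEX18 in air, 498 against 44.3 normalized counts per kilobase. PEX5, the receptor of the C-terminal targeting signal, rose by 1.56 (SE 0.06, adjusted p = 2.3e-07) and PEX9, a receptor related to it, by 1.35 (SE 0.13, adjusted p = 2.5e-05). PEX7 itself, the receptor of the N-terminal signal, had a log2 fold change of 0.89 (adjusted p = 4.2e-05), under the minimum fold.

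No gene of docking, ubiquitin ligation, receptor recycling, membrane assembly or proliferation was called. In the docking complex, PEX13 had 539, 551 and 564 in air and 935, 1076 and 935 in hypoxia, log2 fold change 0.83 (SE 0.08, adjusted p = 2.2e-05). PEX14 had 614, 551 and 637 and 1021, 1114 and 1018, log2 fold change 0.81 (SE 0.08, adjusted p = 3.1e-05). PEX8, which joins docking and ligase complexes, and PEX17 had -0.41 (adjusted p = 0.0011) and -0.14 (adjusted p = 0.30). PEX2, a RING ligase, came closest to a call, with 1006, 1045 and 1083 in air, 2186, 2099.7 and 1904 in hypoxia and a log2 fold change of 0.98 (SE 0.07, adjusted p = 5.2e-06). It was called without hypoxic library 3, without air library 3 and with libraries scaled to equal totals. PEX10, also a ligase, had 374, 410.4 and 404 and 553, 518 and 534, log2 fold change 0.43 (SE 0.08, adjusted p = 0.0009).

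Of the recycling machinery, PEX15, the membrane anchor of the AAA ATPases, had 292, 307 and 326 in air and 549, 624 and 579 in hypoxia, log2 fold change 0.92 (SE 0.08, adjusted p = 1.9e-05). PEX4, the ubiquitin-conjugating enzyme, had 319.6, 337 and 324 and 459, 448 and 451, log2 fold change 0.47 (SE 0.07, adjusted p = 0.00044). PEX6, which encodes an AAA ATPase, had 0.26, and PEX22, the anchor of Pex4, 0.45. The pair that inserts membrane proteins went apart, neither gene reaching the minimum fold. PEX19 had 761, 750.2 and 765 in air and 602, 534 and 490.2 in hypoxia, log2 fold change -0.49 (SE 0.09, adjusted p = 0.001). PEX3 had 1157, 1219 and 1223 and 1416, 1446 and 1241, log2 fold change 0.19 (SE 0.08, adjusted p = 0.053).

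Of the genes of peroxisome proliferation, none reached the minimum fold. PEX11, the main elongation factor, had 574, 599.8 and 639.9 in air and 575, 667 and 701 in hypoxia, log2 fold change 0.10 (SE 0.09, adjusted p = 0.37). An oleate response element stands before this gene. Its relative PEX25 had 819, 797 and 873 and 1239, 1197 and 1306, log2 fold change 0.59 (SE 0.07, adjusted p = 8.2e-05), and PEX27 had 269, 275 and 329 and 528, 628 and 467, log2 fold change 0.89 (SE 0.13, adjusted p = 0.00031). For PEX25 and PEX27 the groups did not overlap, and for PEX11 they did. PEX34 had 239, 266 and 210.1 and 160.2, 224 and 274, log2 fold change -0.15 (SE 0.19, adjusted p = 0.50), with overlapping groups. Of the genes that limit size and number, PEX28 was called higher, with 633, 679.6 and 664 in air and 1473, 1646 and 1353 in hypoxia, log2 fold change 1.17 (SE 0.09, adjusted p = 4.5e-06). PEX31 had 819.7, 772 and 788 and 1193, 1168 and 1421, log2 fold change 0.66 (SE 0.09, adjusted p = 0.00017). PEX29, PEX30 and PEX32 had 0.26, -0.36 and 0.18.

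**Figure D4:**
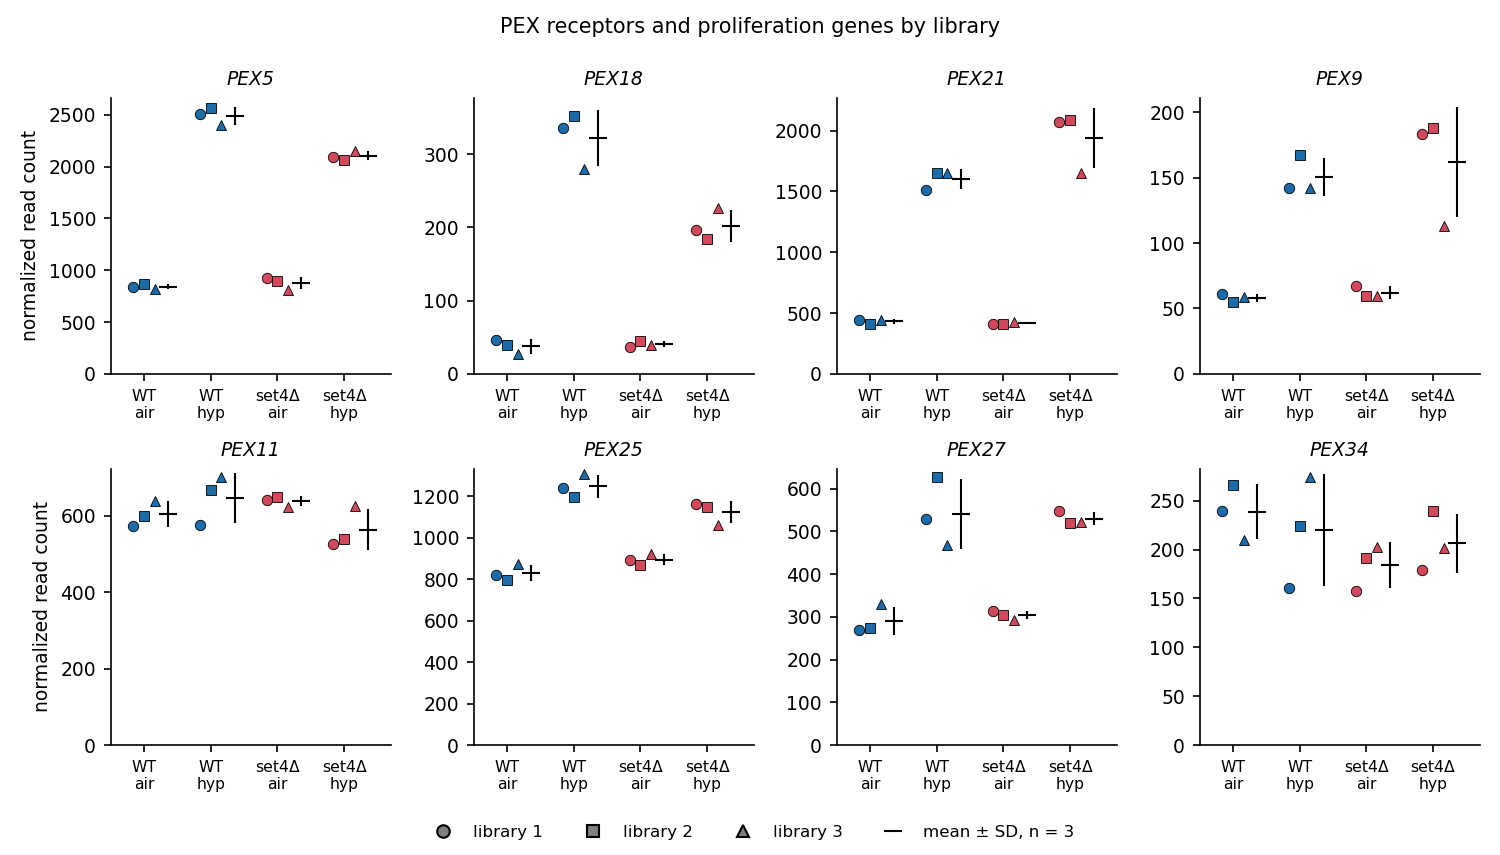
Normalized read counts of 4 PEX receptors or co-receptors (upper row) and 4 PEX genes of proliferation (lower row) in each library of the response tables, with libraries marked by shape and the mean ± SD (n = 3) beside them; the axis starts at 0. The receptors lie far above air in hypoxia in both genotypes, while PEX11 and PEX34 overlap between air and hypoxia in wild type.

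The second comparison asks the same of set4Δ cells. Of the 20 oxidation genes, 12 were called higher and 1 lower, where 18.6% of the 6058 genes tested were called higher and 15.5% lower. Of the 28 PEX genes, 5 were called higher and 0 lower. The medians were 1.14, 0.36 and 0.01 on the log2 scale for the oxidation genes, the PEX genes and all genes. All 17 genes called higher in set4Δ were among the 20 called higher in wild type, and FAT1 was called lower in both. Groups lay apart with hypoxia above for 18 oxidation and 18 PEX genes, against 41.7% of all genes, and with hypoxia below for 2 and 4, against 41.2%. FOX2, SPS19 and TES1 were called in wild type alone. In set4Δ, FOX2 had 524, 452 and 451 in air and 823, 809 and 1254 in hypoxia, log2 fold change 0.99 (SE 0.17, adjusted p = 0.00093). SPS19 had 178, 240.1 and 208 and 383, 326 and 415, log2 fold change 0.84 (SE 0.14, adjusted p = 0.00068). TES1 had 708, 720.2 and 738 and 1299, 1253 and 1572, log2 fold change 0.92 (SE 0.10, adjusted p = 5e-05). All 3 passed the adjusted p and missed only the minimum fold, so that a call in wild type alone does not show a difference between the genotypes. Without the minimum fold, 18 oxidation genes were higher and 2 lower and 18 PEX genes were higher and 4 lower, where 39.6% and 39.8% of all genes were. FOX2 was called in set4Δ by edgeR, by DESeq2, with libraries scaled to equal totals, and when set4Δ hypoxic library 1 or 2 or air library 1 was left out. ECI1 lost its call without air library 1 or hypoxic library 3, and PEX28 without hypoxic library 1. Under quantile normalization POX1, ECI1, DCI1, PEX9 and PEX28 lost their calls and FAA4 was called higher.

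The other core enzymes rose in set4Δ as well. POX1 had 249, 271 and 274 normalized counts in air and 548, 539.6 and 614 in hypoxia, log2 fold change 1.10 (SE 0.09, adjusted p = 1.2e-05). POT1 had 229, 165 and 197 and 710.0, 710.1 and 869, log2 fold change 1.95 (SE 0.14, adjusted p = 7e-06). ECI1 had 121, 141 and 127 and 265, 228 and 314, log2 fold change 1.04 (SE 0.14, adjusted p = 0.00021). The estimates for these 3 genes lay below those of wild type, and that of DCI1 lay above, with 111, 112 and 103 and 259, 225 and 328 and a log2 fold change of 1.29 (SE 0.15, adjusted p = 9e-05). FAA2 had 346, 361 and 328 in air and 2083, 1790.2 and 2968 in hypoxia, log2 fold change 2.69 (SE 0.17, adjusted p = 4.1e-06). PXA2 had 283, 250.5 and 249 and 899, 995 and 1241, log2 fold change 1.99 (SE 0.13, adjusted p = 4.2e-06). FAT1 had 2249, 2492 and 2639 and 873, 900.3 and 963, log2 fold change -1.43 (SE 0.08, adjusted p = 2.4e-06). Hypoxic library 3 held the highest FAA2, PXA2, POX1, FOX2, POT1, ECI1, DCI1, SPS19 and TES1 of the 3 set4Δ libraries.

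The carnitine shuttle and PIP2 were also called higher in set4Δ. YAT1 had 268, 283 and 273 in air and 8547, 8165 and 3280.4 in hypoxia, log2 fold change 4.47 (SE 0.33, adjusted p = 8.7e-06). CAT2 had 237, 231 and 230.5 and 2547, 2276 and 2693, log2 fold change 3.42 (SE 0.08, adjusted p = 4.8e-08). YAT2 and CRC1 had log2 fold changes of 3.54 and 3.01, and without hypoxic library 3 that of YAT2 was 4.21 (adjusted p = 1.9e-14). PIP2 had 881, 825 and 824 and 1977, 1825 and 1959, log2 fold change 1.19 (SE 0.07, adjusted p = 2.4e-06), and OAF1 had 1688, 1697 and 1676 and 1910.4, 2098 and 1928, log2 fold change 0.23 (SE 0.07, adjusted p = 0.013).

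Of the PEX genes in set4Δ, PEX18 had 36.3, 44.4 and 40 in air and 197, 184 and 226 in hypoxia, log2 fold change 2.30 (SE 0.14, adjusted p = 3.7e-06). PEX21 had 413, 413 and 426 and 2074, 2084 and 1652, log2 fold change 2.20 (SE 0.10, adjusted p = 8.5e-07). The same 5 PEX genes as in wild type were called, the others being PEX5 at 1.26, PEX9 at 1.33 and PEX28 at 1.06. Of the proliferation genes, PEX11 had 642, 648 and 623 and 525, 539.6 and 626, log2 fold change -0.18 (SE 0.09, adjusted p = 0.082). PEX25 had 890.1, 869 and 921 and 1159.7, 1146 and 1060.4, log2 fold change 0.33 (SE 0.07, adjusted p = 0.0026). PEX27 had 312, 305 and 293 and 547, 519.8 and 522, and PEX34 had 157, 192 and 202 and 179, 239 and 201. Their log2 fold changes were 0.80 and 0.17 (adjusted p = 2.6e-05 and 0.32), and the groups overlapped for PEX34. The remaining PEX genes lay between -0.53 for PEX19 and 0.97 for PEX2.

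Between the genotypes in air no member passed the test. None of the 48 was called at an adjusted p of at most 0.05 (limma over 5814 genes, of which 0.0172% were called higher and 0.0344% lower), and none was called by edgeR or DESeq2 on the reads. At an unadjusted p of at most 0.05, PEX10 was higher in set4Δ and PEX31 and PEX34 were lower, with log2 fold changes of 0.16, -0.15 and -0.41 (adjusted p = 0.99, 0.99 and 0.77), where 1.72% of all genes were higher and 3.1% lower. The set4Δ libraries lay wholly above wild type for 4 members and wholly below for 5, against 4.52% and 5.5% of all genes. PEX34 was the largest difference in size, with 248, 278 and 220.1 normalized counts in wild type and 160.2, 192 and 208 in set4Δ. The median log2 fold change was -0.03 for the oxidation genes and 0.00 for the PEX genes. POX1 had 236, 241 and 244 in wild type and 254, 271 and 281 in set4Δ, log2 fold change 0.16 (SE 0.09, adjusted p = 0.99), with each set4Δ library above each of wild type.

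The comparison of the genotypes in hypoxia, in a table normalized for the hypoxic libraries alone, gave lower values of core oxidation genes, FAA2 and PEX18 in set4Δ, but no member passed the test over all libraries. Of 5875 genes, 0.817% were called higher and 0.391% lower in set4Δ, and of the 48 members none. The median log2 fold change was -0.14 for the oxidation genes, of which 14 were below 0, -0.07 for the PEX genes, of which 16 were below 0, and -0.01 for all genes. At an unadjusted p of at most 0.05, FAA2, POX1, POT1, ECI1 and SPS19 and 5 PEX genes, among them PEX5, PEX17, PEX18 and PEX25, were lower and no member was higher, where 6.59% of all genes were lower and 6.59% higher. Of the 48, 8 had set4Δ libraries all below those of wild type and 0 all above, against 10% and 9.57% of all genes. edgeR on the reads called 0 members, where it called 0.885% of all genes higher and 0.391% lower. DESeq2 called ECI1, PEX5 and PEX18 lower, where it called 2.72% of all genes higher and 1.45% lower.

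PEX18 was the nearest to a call. It had 330.0, 346 and 273 in wild type and 189.7, 176 and 221 in set4Δ, log2 fold change -0.69 (SE 0.13, adjusted p = 0.065). FAA2 had 3327, 3136 and 3223 and 2009, 1715 and 2894, log2 fold change -0.58 (SE 0.18, adjusted p = 0.24). ECI1 had 419, 461 and 332 and 256, 218 and 307, log2 fold change -0.63 (SE 0.17, adjusted p = 0.17). In these 3 genes every set4Δ library lay below every wild-type library, and set4Δ library 3 was the nearest to wild type. POX1 had 903, 775 and 627 and 528, 517 and 599, log2 fold change -0.47 (SE 0.14, adjusted p = 0.22), again without overlap. FOX2 had 1346, 1092 and 1175 and 793, 775 and 1222, log2 fold change -0.40 (SE 0.19, adjusted p = 0.42). POT1 had 1434, 1028 and 828 and 685, 680.3 and 848, log2 fold change -0.54 (SE 0.20, adjusted p = 0.32). For FOX2 and POT1 the groups overlapped, through library 3 of set4Δ in both genes and through library 3 of wild type in POT1. The 3 core genes summed to 3684, 2894 and 2629 normalized counts in wild type and to 2006, 1972 and 2669 in set4Δ.

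Of the other members, none had an adjusted p under that of PEX18. SPS19 had 469.7, 456 and 404 in wild type and 369.5, 313 and 404 in set4Δ, log2 fold change -0.30 (SE 0.12, adjusted p = 0.35), and TES1 had 1657, 1419.8 and 1662 and 1253, 1200.2 and 1533, log2 fold change -0.25 (SE 0.12, adjusted p = 0.42). DCI1, with 253, 227 and 226 and 250.2, 215 and 320.3, had a log2 fold change of 0.14 (SE 0.15, adjusted p = 0.79). PIP2 had 2017, 2067 and 1746 and 1906, 1748 and 1909.9, log2 fold change -0.06 (SE 0.09, adjusted p = 0.85), and OAF1 0.03 (SE 0.07, adjusted p = 0.90), with overlapping values for PIP2. PEX5 had 2466, 2526 and 2345 and 2019, 1980.0 and 2098, log2 fold change -0.27 (SE 0.07, adjusted p = 0.18), and PEX21 had 1482, 1624 and 1615 and 2000.0, 1997 and 1611, log2 fold change 0.24 (SE 0.11, adjusted p = 0.39). Of the co-receptors, PEX18 thus had a negative and PEX21 a positive value, neither past the threshold. PEX11 had 564, 657 and 686 and 507, 517 and 610.3, log2 fold change -0.22 (SE 0.11, adjusted p = 0.45), and PEX25 -0.18 (SE 0.07, adjusted p = 0.35). PEX27 and PEX34 had -0.04 and -0.09 (adjusted p = 0.92 and 0.91). YAT1 and YAT2 had the widest errors, 0.23 (SE 0.52, adjusted p = 0.91) and 0.21 (SE 0.64, adjusted p = 0.93), and library 3 was the lowest for both genes in both genotypes. CRC1 had 149.6, 261 and 93.2 in wild type and 116, 146 and 59.6 in set4Δ, log2 fold change -0.61 (SE 0.44, adjusted p = 0.64), with overlapping groups, and CAT2 had -0.17 (SE 0.20, adjusted p = 0.80).

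Leaving out hypoxic library 3 of both genotypes, which leaves 2 libraries against 2, changed the count of calls. Both libraries were picked for their distance from the others, so the adjusted p-values of this fit are descriptions. Of the 20 oxidation genes 6 were then lower in set4Δ, and of the 28 PEX genes 2 were lower and 1 higher, where 3% of all genes were lower and 3.61% higher (limma, adjusted p at most 0.05 over 5874 genes). The log2 fold change was -0.80 (adjusted p = 0.0045) for FAA2, -0.68 (adjusted p = 0.0083) for POX1, -0.63 (adjusted p = 0.018) for FOX2, -0.83 (adjusted p = 0.02) for POT1 and -0.89 (adjusted p = 0.0061) for ECI1. It was -0.41 (adjusted p = 0.021) for PXA1, -0.88 (adjusted p = 0.0045) for PEX18, -0.32 (adjusted p = 0.036) for PEX5 and 0.37 (adjusted p = 0.033) for PEX21. Of the 6 lower oxidation genes 5 have an oleate response element, as have 12 of all 20 oxidation genes (60%). PEX5 has one as well, as have 4 of all 28 PEX genes, while PXA1, PEX18 and PEX21 have none. Leaving out library 3 of set4Δ alone called FAA2, FOX2 and PEX18 lower, where 0.545% of all genes were lower and 1.04% higher. Leaving out that of wild type alone called no member, where 0.187% and 0.613% of all genes were called. The calls thus changed with the libraries kept. With all libraries kept they changed with the method, as DESeq2 called ECI1, PEX5 and PEX18 lower and limma as used above called none. PXA1, ECI1 and PEX5 were singled out here after their values were seen.

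**Figure D5:**
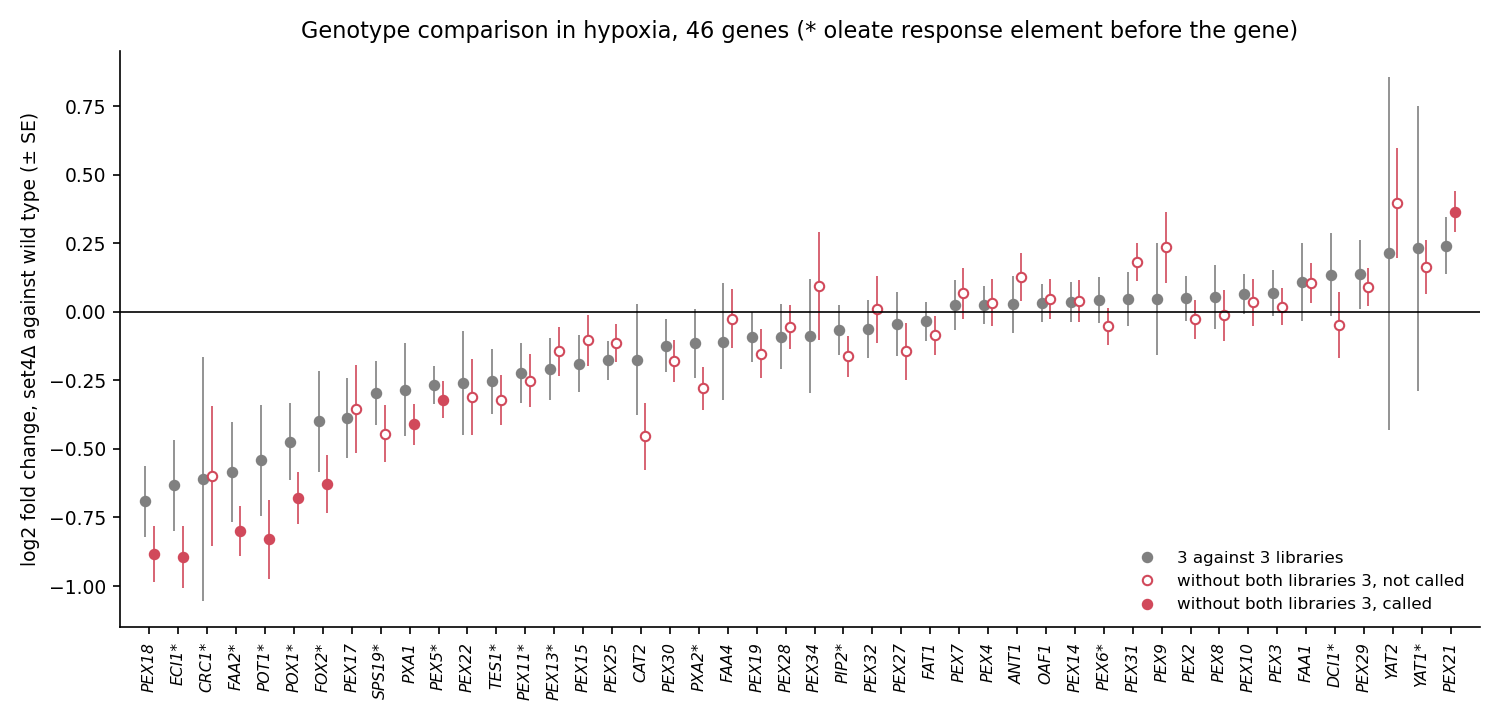
Hypoxic set4Δ over wild-type log2 fold change of 46 of the genes, in ascending order, with all libraries (grey) and without library 3 of both genotypes (red, filled where called), bars ± SE, and asterisks on gene names with an oleate response element. PEX18 and ECI1 are lowest with all libraries, and 9 genes are called without libraries 3.

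The last comparison tests the difference of the hypoxia responses directly, as an interaction over the 12 libraries of both response tables. No member passed (adjusted p ≤ 0.05, limma over 6025 genes, of which 0.913% were called higher and 0.432% lower). It shares its hypoxic libraries with the comparison above and is no independent support for it. POX1 came nearest, with a response lower in set4Δ by -0.65 (SE 0.16, adjusted p = 0.086) on the log2 scale. The difference was -0.60 (SE 0.20, adjusted p = 0.25) for FAA2, -0.61 (SE 0.26, adjusted p = 0.39) for POT1, -0.51 (SE 0.21, adjusted p = 0.36) for FOX2 and -0.51 (SE 0.20, adjusted p = 0.34) for ECI1. It was -0.79 (SE 0.27, adjusted p = 0.25) for PEX18, -0.30 (SE 0.09, adjusted p = 0.17) for PEX5 and 0.31 (SE 0.12, adjusted p = 0.33) for PEX21. For TES1 and SPS19, called in wild type alone, it was -0.35 (SE 0.14, adjusted p = 0.36) and -0.35 (SE 0.17, adjusted p = 0.45). DCI1 had 0.18 (SE 0.18, adjusted p = 0.80) and PIP2 0.00 (SE 0.10, adjusted p = 1.00). At an unadjusted p of at most 0.05, 6 oxidation genes responded less in set4Δ and 0 more, and 5 PEX genes less and 1 more, where 6.16% of all genes were lower and 5.74% higher. Without library 3 of both genotypes, 6 oxidation genes were called lower and PEX21 higher, where 1.99% and 2.71% of all genes were, with -0.84 (adjusted p = 0.0017) for POX1, -0.80 (adjusted p = 0.0019) for FAA2, -0.73 (adjusted p = 0.0089) for FOX2, -0.76 (adjusted p = 0.022) for ECI1, -0.88 (adjusted p = 0.043) for POT1 and -0.64 (adjusted p = 0.019) for CAT2. Without library 3 of set4Δ alone, FAA2 and FOX2 were lower and PEX21 higher, where 0.697% of all genes were lower and 1.28% higher. Without that of wild type alone, POX1 was lower, where 0.548% were lower and 1.1% higher. DESeq2 also called POX1 lower, where it called 1.03% of all genes lower and 1.83% higher, and edgeR called no member, where it called 0.432% and 0.88%.

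Members with and without an oleate response element were then set side by side. In wild type, all 12 oxidation genes with an element were called higher in hypoxia, with a median log2 fold change of 1.65, against 3 of 8 without one, median 0.52. Of the 4 PEX genes with an element, 1 was called, median 0.54, and of the 24 without one, 4 were, median 0.46. Of the other 91 tested genes with an element, 29.7% were called higher and 11% lower, median 0.34. Over all genes tested in wild type, 18.1% were called higher and 14.4% lower, median 0.01. Between the genotypes in hypoxia, the 16 members with an element had a median log2 fold change of -0.26, with 13 below 0, and the 32 without one -0.04, with 17 below 0. Over all 5875 genes the median was -0.01, with 3045 below 0. The other 91 tested genes with an element had a median of -0.04 in this comparison, with 1 called higher and 1 lower. For the oxidation genes alone the medians were -0.35 with an element and -0.0035 without. Divergent genes can share an element, and members of a pathway are not independent replicates, so that these are descriptions with no test.

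Of 17 further genes of peroxisomal metabolism and turnover, 5 were called higher and 1 lower in wild type, and 4 and 1 in set4Δ, where 18.1% and 14.4% of all genes were called in wild type. ADR1, whose product activates many of these genes once glucose is exhausted, had 799, 1083 and 865 in air and 5785, 5058 and 2876 in hypoxia in wild type, log2 fold change 2.27 (SE 0.25, adjusted p = 4.8e-05), and 1.99 in set4Δ. CIT2, the peroxisomal citrate synthase, rose by 2.78 and 2.95, and ATG36, the receptor for peroxisome autophagy, by 2.11 and 2.19. MLS1, the malate synthase of the glyoxylate pathway, rose by 1.05 and 1.18, and IDP3, the peroxisomal isocitrate dehydrogenase, by 1.26 in wild type, with 0.98 in set4Δ. VPS1, a dynamin-like protein of peroxisome division, fell by 1.29 and 1.38 on the log2 scale. The catalase gene CTA1 had log2 fold changes of 0.67 and 0.85, under the minimum fold. None of the 17 differed between the genotypes in air or in hypoxia by limma, edgeR or DESeq2 in fits of genotype alone over all libraries, with 0 at an unadjusted p of at most 0.05 in limma. Without both hypoxic libraries 3 (2 against 2, chosen after seeing the data), limma called ADR1, IDP3 and LPX1 lower in set4Δ cells. Their log2 fold changes were -0.45 (adjusted p = 0.027), -0.46 (adjusted p = 0.02) and -0.54 (adjusted p = 0.021), where 3% of all genes were called lower and 3.61% higher.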

How the data were processed

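RNA of 12 libraries, 3 for each genotype and condition, was depleted of ribosomal RNA and sequenced with a stranded kit. Per the submitters' processing notes, Trimmomatic 0.36 was used for trimming, STAR 2.5.2b for alignment and Subread 1.5.2 for gene counts. The authors divided the counts by DESeq2 size factors and deposited this signal, the normalized read counts, in 4 tables of 6 libraries, each normalized on its own. The sources used here give neither genome build nor strand setting, nor the treatment of multiply mapped reads. The tables also hold the authors' own log2 fold changes, p-values and local false discovery rates, which were not used.

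Each of the 24 columns held whole multiples of 1 read (100% of values within 0.01 of a whole read), which gave library sizes of 18786176 to 27572406 reads. Libraries are numbered as in the response tables. The matching reads showed that numbers 1 and 3 are exchanged in columns of the genotype tables. One wild-type column of the table for air was not aligned with its genes (5825 values for 5822 genes) and was replaced by its aligned copy from the wild-type response table, with which it shared 99.9% of its values as reads, and 8 genes were left out for want of a value. One unnamed entry of the hypoxic table was also left out.

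Values were analysed as log2(value + 1) for genes whose mean reached 10 in one group or the other, with limma 3.58.1 (variance trend) in R 4.3.3, so that fold changes of low genes are understated. p-values were adjusted by Benjamini-Hochberg over all genes tested. Responses were called at adjusted p ≤ 0.05 and an absolute log2 fold change ≥ 1, the other comparisons at the adjusted p alone. The script was tested on simulated data. Alternatives were the pseudocount, filter, trend, scaling, replicate block, each library left out, and, chosen after seeing the data, both hypoxic libraries 3 left out and edgeR 4.0.16 and DESeq2 1.42.0 on the recovered reads. An exact permutation test of 3 against 3 could not go below p = 0.1 and was not used.

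Members and lists were chosen with earlier results of these data known. Values of every library are given for core and auxiliary enzymes, regulators and proliferation genes, for the 2 genes of each other role with the largest wild-type change in size, for genes called lower, and for genes called in 1 genotype alone, and others are given by fold change. Of the members, 2 count in the lists but are not reported here. All 48 members matched the RefSeq R64 annotation by symbol, and promoters were read from that genome.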

Additional observations from a re-analysis of the deposited data

How the results depend on the processing

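Counts of members called in the responses changed mainly with the minimum fold. Without it, 2 oxidation genes were lower, 18 PEX genes higher and 3 lower in wild type, and 2, 18 and 4 in set4Δ, where 39.5% to 40% of all genes were called in each direction. Quantile normalization, which shifted the median of all genes by -0.15 in wild type and -0.14 in set4Δ, called 14 oxidation and 4 PEX genes higher in wild type and 10 and 3 in set4Δ, and over all genes 901 higher and 983 lower in wild type (1091 and 867 otherwise) and 914 and 1052 in set4Δ (1128 and 938 otherwise). Scaling to equal totals shifted the medians by 0.085 and 0.074. It called 15 oxidation and 7 PEX genes higher in wild type, where 1188 of all 6033 genes were higher. In set4Δ it called 13 and 7, where 1233 of all 6058 genes were higher. At an unadjusted p of at most 0.05, 1 PEX gene was higher and 2 lower between the genotypes in air, 5 oxidation and 5 PEX genes were lower in hypoxia, and in the difference of responses 6 oxidation and 5 PEX genes were lower and 1 PEX gene higher.

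Leaving out 1 library at a time gave 0 to 2 oxidation genes and 0 to 1 PEX gene lower between the genotypes in hypoxia, and 0 to 2 oxidation genes lower and 0 to 1 PEX gene higher in the difference of responses. Without library 3 of both genotypes there were 6 oxidation genes and 2 PEX genes lower and 1 PEX gene higher in hypoxia, and 6 lower and 1 higher in the difference. DESeq2 called 1 oxidation gene and 2 PEX genes lower in hypoxia and 1 oxidation gene lower in the difference, and edgeR 0. With replicate number as a block, limma and edgeR each called 2 oxidation genes (FAA2 and CRC1) and 1 PEX gene (PEX18) lower in hypoxia. Over all 5875 genes, the calls went from 48 higher and 23 lower to 238 and 198 in limma. In edgeR they went from 52 higher and 23 lower to 251 and 189. Same-numbered hypoxic libraries of the genotypes deviated together at r = 0.028, 0.711 and 0.734. Those with different numbers ranged from -0.818 (set4Δ library 3 with wild-type library 2) to 0.749 (set4Δ library 1 with wild-type library 2). The labels give no shared batch, so that the numbers were not taken to pair the libraries. In limma the block changed no other call of a member. Of the 17 further genes, edgeR with the block called 1, CTA1, higher in hypoxic set4Δ cells, where it called 251 of all 5875 genes higher. The cause of these changes was not tested.

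In the responses, signs changed only for PEX genes that were not called. In wild type, quantile normalization gave PEX22 -0.19, PEX11 -0.052 and PEX32 -0.058, and PEX34 ranged from -0.32 to 0.062 with 1 library left out. In set4Δ, quantile normalization gave PEX34 -0.30 and PEX32 -0.060. For PEX22, equal totals gave 0.062, edgeR 0.024 and edgeR with the block 0.022. With 1 library left out, PEX22 ranged from -0.075 to 0.11 in set4Δ. Of promoters of all genes, 1.05% held an element within 300 bases and 8.81% held CGG and CCG at that distance with any bases between. Library 3 of the hypoxic groups and 3 libraries a group limit what these comparisons can show.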
